A study of Mus musculus with 3 samples.

Results

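A set of 7 genes of the cell division cycle was examined for the histone mark H3K36me3 in fetal mouse pancreatic epithelium: Mki67, Top2a, Cdk1, Ccnb1, Ccna2, Ccnd1 and Ccnd2. They were chosen by Ensembl identifier, and all 7 members were found among the 24318 rows with an identifier in each of 3 deposited tables of 25493 rows. The mark was profiled by CUT&Tag, in which an antibody against the mark brings a transposase to it, and the transposase inserts sequencing adapters into the DNA nearby. Cells came from wild-type (WT) C57BL/6 embryos of 3 stages (E11.5, then E13.5, then E15.5), were labelled for the epithelial surface protein EpCAM and sorted by flow cytometry, and each stage is a single library. The series' design text differs slightly from the sample labels in the day of the middle stage. Stages here follow the labels. All 3 sample titles also carry one shared trailing number that no label explains. The labels give a mean depth of 20000000 reads per sample and do not say how many embryos went into a library. The identity of the sorted cells was not checked by marker genes here, because no table used here pairs the other identifiers with symbols. With 1 library per stage and no control library analysed here, no difference between stages was tested, and values below are sizes in these libraries.

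H3K36me3 is laid down by SETD2, an enzyme that travels with elongating RNA polymerase II, so the mark builds up over the bodies of transcribed genes and is usually sparse at their starts. Cyclins are the regulatory subunits that switch on cyclin-dependent kinases in turn through the cell cycle. D-type cyclins act in G1 in response to growth signals, cyclin A2 acts in S phase and G2, and cyclin B1 with the kinase CDK1 drives entry into mitosis. The early pancreatic epithelium is a population of dividing progenitor cells that later gives rise to acinar, duct and endocrine cells.

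Each table gives 3 columns of signal per gene, headed PR, GB and SE. The values behaved as mean signal per position over a window: every PR value above 0, multiplied by 6000, and every SE value above 0, multiplied by 12000, was a whole number of a smallest unit, called a step here (tolerance 0.05 steps plus 0.01% of the sum). In stage order a step was 0.162, 0.167 and 0.163. Wholeness alone does not fix a window length, since the same values times another length give whole numbers of a rescaled step. The tolerance also grows with the sum, so very large sums would pass it in any case. How many steps a read contributes is unknown, so a sum in steps is a size and not a read count. GB gave whole steps at window lengths that could be set against the RefSeq genes of GRCm38.p6, the build that mm10 corresponds to. The window length was 17767 positions for Cdk1 and 8174 for Ccna2, each equal to the length of the RefSeq gene of that symbol. For Ccnb1 the smallest fitting length was 3874. The multiple of it that equals the RefSeq gene, 7748, was used. That equality is therefore not a separate result, and the body sums of Ccnb1 below depend on it. For Mki67 the length was 26592 (window minus RefSeq gene -75), for Top2a 31243 (-10), for Ccnd1 9995 (94) and for Ccnd2 25340 (-1687). GB is therefore read as the whole gene body, from its length alone. No file states what PR and SE stand for.

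The position of PR and SE was worked out from the whole tables. In rows with a recovered length of 2000 to 3000 positions that RefSeq also lists, the GB sum exceeded the PR sum in 5.02%, against 66.3% of rows of 4000 to 5000. For the SE sum the share was 3.52% of rows of 5000 to 6000 positions and 48.3% of rows of 7000 to 8000. Among rows placed by a length unique to 1 RefSeq gene, PR of 43 neighbour pairs on opposite strands with starts within 500 bases correlated at 0.578, 0.712 and 0.421 in stage order (Spearman, across gene pairs that share 1 library). In 19 such pairs with ends within 500 bases the values were -0.246, -0.111 and -0.102. SE outside PR gave 0.503, 0.660 and 0.496 for shared starts and -0.112, 0.018 and 0.139 for shared ends. PR is read below as about 3000 positions on either side of the gene start, and SE as about 6000 on either side. Under this reading the first 3000 positions make up 38.7% of the body of Ccnb1, 36.7% of Ccna2 and 30.02% of Ccnd1, but 9.60% of Top2a, 11.3% of Mki67, 11.8% of Ccnd2 and 16.9% of Cdk1. The 3 columns thus share positions and are not independent readouts of a gene.

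Promoter sequence was available in the RefSeq table of GRCm38.p6 for 4 of the 7 genes, and is shown because PR is centred on the start and because these genes are classic examples of cell-cycle promoters. The 250 bases before the start that this table uses are given 5′ to 3′ on the strand of the gene, with capitals marking CCAAT (bound by NF-Y) and TTTGAA or TTCGAA (the cell-cycle homology region, CHR, recognised by MuvB complexes), on either strand. The windows are chr7:135716380-135716629 for Mki67, chr11:99024190-99024439 for Top2a, chr10:69352913-69353162 for Cdk1 and chr13:100786487-100786736 for Ccnb1, all on the minus strand. For Mki67 and Top2a that start lies inside the RefSeq gene span given further on, so that 71 and 10 bases of their windows fall within the span, whereas the Cdk1 and Ccnb1 windows end where their gene begins.
Mki67: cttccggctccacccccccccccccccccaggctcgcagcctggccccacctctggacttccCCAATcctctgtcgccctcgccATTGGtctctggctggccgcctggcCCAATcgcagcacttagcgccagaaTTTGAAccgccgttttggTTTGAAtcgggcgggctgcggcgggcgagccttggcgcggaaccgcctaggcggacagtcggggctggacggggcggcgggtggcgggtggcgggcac
Top2a: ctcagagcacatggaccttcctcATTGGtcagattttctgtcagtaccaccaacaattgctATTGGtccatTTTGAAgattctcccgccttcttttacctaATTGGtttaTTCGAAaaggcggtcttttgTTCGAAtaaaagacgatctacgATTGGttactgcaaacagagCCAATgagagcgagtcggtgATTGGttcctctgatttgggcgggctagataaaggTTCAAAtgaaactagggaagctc
Cdk1: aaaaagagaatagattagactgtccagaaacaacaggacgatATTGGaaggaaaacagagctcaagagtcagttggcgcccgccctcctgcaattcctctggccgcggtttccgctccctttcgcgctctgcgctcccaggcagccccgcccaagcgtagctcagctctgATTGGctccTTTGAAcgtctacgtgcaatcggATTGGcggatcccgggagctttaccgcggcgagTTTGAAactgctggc
Ccnb1: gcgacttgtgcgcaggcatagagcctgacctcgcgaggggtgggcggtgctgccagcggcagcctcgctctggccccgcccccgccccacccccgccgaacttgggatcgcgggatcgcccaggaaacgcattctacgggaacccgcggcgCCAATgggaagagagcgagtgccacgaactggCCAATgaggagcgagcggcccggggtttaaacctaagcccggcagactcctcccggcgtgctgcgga
CCAAT was found 3 times in Mki67, 6 times in Top2a, 3 times in Cdk1 and 2 times in Ccnb1. A CHR match was found 2 times in Mki67, 4 times in Top2a and 2 times in Cdk1, and these letters are not in the Ccnb1 window. No other letters were searched for as a CHR, so other forms of the element were not looked for. Of all 32851 promoters of the table, 33.8% held CCAAT and 10.1% held 2 or more, 17.1% held a CHR match and 1.98% held 2 or more. The motifs do not overlap each other in these windows. A match is a description of the letters and says nothing of binding in these cells.

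Across the 7 genes, body signal was mostly in the upper part of each library, while signal around the start was mostly low at E13.5 and higher at E15.5. GB lay above the 50th percentile of identified rows in 6, 5 and 7 of the 7 genes in stage order. The median percentile in GB was 69.4, 79.6 and 79.1. Against rows of 0.5 to 2 times the same window length, the GB of 5, 4 and 6 genes was above the median. In PR, 3, 1 and 6 genes lay above the 50th percentile, with median percentiles of 49.8, 21.3 and 71.8. In SE the counts were 3, 2 and 6, and the median percentiles 48.5, 21.6 and 72.9. The median GB of the members was 0.00674, 0.00818 and 0.0109 in deposited units, against medians over all identified rows of 0.00432, 0.00421 and 0.00371. Median PR of the members was 0.00389, 0.000613 and 0.0156, against 0.00394, 0.00368 and 0.00559 over all identified rows. The E15.5 library stood apart from the others in that 22.1% of identified rows had PR listed at 0, against 11.9% in the E13.5 library and 7.59% in the E11.5 library, and the part of this in the members' values was not tested. In bulk libraries like these, fewer cells that carry the mark on a gene and less mark per cell cannot be told apart.

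**Figure D1:**
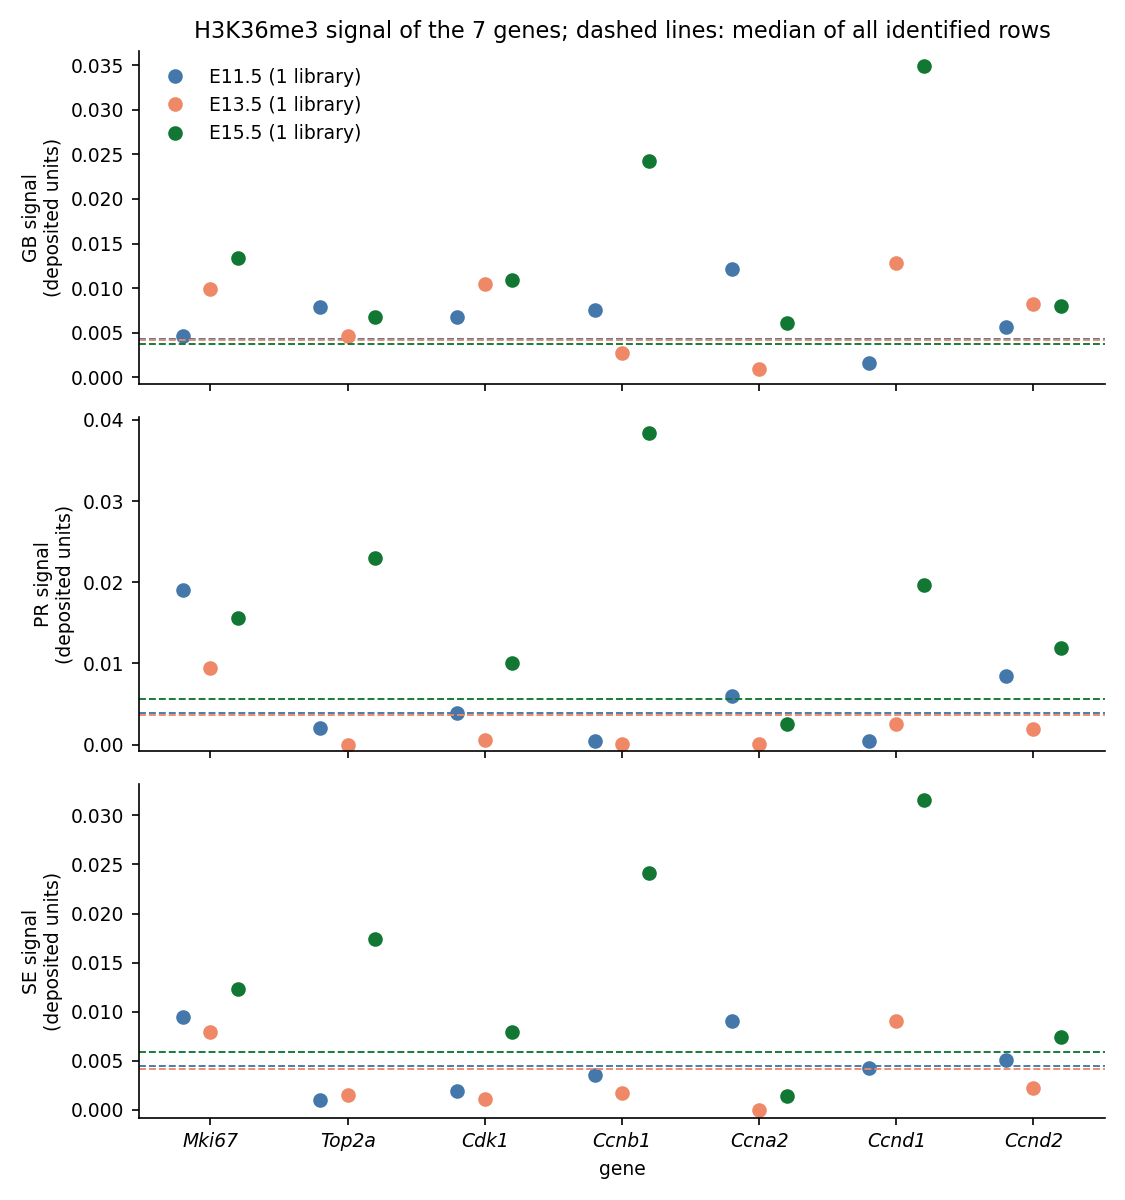
H3K36me3 signal per position (deposited units) of the 7 genes in the GB, PR and SE columns, with 1 point per library coloured by stage and dashed lines for the median of all identified rows in that library. Ccnd1 and Ccnb1 have the highest GB at E15.5 (0.0349 and 0.0242), and in PR 6 of the 7 E13.5 points lie below the E13.5 median of 0.00368.

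Among the genes of the mitotic apparatus, Mki67 encodes Ki-67, a protein that coats mitotic chromosomes and is the standard marker of dividing cells. It (ENSMUSG00000031004) lies on chromosome 7 from 135689784 to 135716450. Its GB was 0.00468 (E11.5), 0.00991 (E13.5) and 0.0134 (E15.5), at the 53.5th, 85.9th and 83.3rd percentile. Body signal was thus lowest at E11.5 and highest at E15.5, although its rank was slightly higher at E13.5 and its E15.5 against E13.5 log2 ratio of 0.40 became -0.15 under quantile normalization. PR had another order, with 0.0190, 0.00943 and 0.0156, and its percentile was 96.9, 83.1 and 71.8. Signal around the start of Mki67 was therefore among the highest of the E11.5 library, and its rank was lowest at E15.5. At E11.5 the summed PR signal was 704 steps and the summed SE signal also 704, so the outer part of SE held 0. The body sum was 768 steps at that stage, which leaves at least 8.33% of it outside PR. At E13.5 and E15.5 at least 78.5% and 73.8% of the body sum lay outside PR.

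Top2a (ENSMUSG00000020914) encodes DNA topoisomerase II alpha, which untangles sister chromatids before they part, and lies on chromosome 11 from 98992947 to 99024199. Its GB was 0.00791 (E11.5), 0.00459 (E13.5) and 0.00679 (E15.5), at the 76.1st, 53.9th and 66.8th percentile. These levels differed by less than 2-fold between any pair of stages. PR was 0.00200 (E11.5), listed at 0 (E13.5) and 0.0229 (E15.5), the last of which was at the 82.6th percentile. The body sum of 1526 steps at E11.5 lay at least 95.0% outside even the wider SE window, and that of 856 steps at E13.5 at least 87.4%. At E15.5 the SE sum was 1284 steps against a body sum of 1302, so that at least 1.38% lay outside SE. Top2a thus had body levels within 2-fold of each other and a different split of signal between its start and its body at E15.5.

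Cdk1 (ENSMUSG00000019942) encodes the kinase at the centre of mitotic entry and lies on chromosome 10 from 69335146 to 69352912. GB was 0.00674, 0.0104 and 0.0109 in stage order, at the 69.4th, 87.4th and 79.1st percentile. PR was 0.00389, 0.000613 and 0.0100, at the 49.8th, 21.3rd and 60.04th percentile. The low PR at E13.5 rested on 22 steps, beside a body sum of 1108 steps. The outer part of SE held 0, 57 and 212 steps in stage order. Cdk1 therefore had its highest body rank at the stage with its lowest PR rank.

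Ccnb1 (ENSMUSG00000041431) encodes cyclin B1, the partner of CDK1 in mitosis, and lies on chromosome 13 from 100778739 to 100786486. GB was 0.00756 (E11.5), 0.00268 (E13.5) and 0.0242 (E15.5), at the 74.2nd, 33.2nd and 92.4th percentile. PR was 0.000485, 0.000140 and 0.0384, at the 18.6th, 14.9th and 93.2nd percentile. In steps, PR was 18, 5 and 1414 in stage order, and the body sum was 362, 124 and 1152. The E15.5 library thus stood above both earlier ones in every column of Ccnb1, by the widest margin in PR. RefSeq lists related-sequence names among the synonyms of Ccnb1, and the treatment of reads that map to several places is not stated in the sources used here.

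Ccna2 (ENSMUSG00000027715) encodes cyclin A2 and lies on chromosome 3 from 36564865 to 36573038. Top2a and Ccna2 had their highest GB at E11.5, and Ccna2 alone of the 7 also had its highest SE there. GB was 0.0121, 0.000902 and 0.00610 in stage order, at the 89.2nd, 20.2nd and 63.8th percentile. PR was 0.00599, 0.0000550 and 0.00261, and SE was 0.00904, 0.0000275 and 0.00139. The E13.5 values rest on 44 steps over the whole body and 2 steps over the SE window, so that SE was at the 3.25th percentile of its library. Against rows of similar window length, GB of Ccna2 was at the 81.9th, 9.04th and 46.1st percentile.

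The D-type cyclins had unlike profiles in these libraries. Ccnd1 (ENSMUSG00000070348) encodes cyclin D1, which activates CDK4 and CDK6 in G1, and lies on chromosome 7 from 144929931 to 144939831. GB was 0.00164 (E11.5), 0.0128 (E13.5) and 0.0349 (E15.5), at the 24.6th, 91.8th and 95.8th percentile. PR was 0.000432, 0.00257 and 0.0197, at the 17.7th, 40.4th and 78.5th percentile, and SE was 0.00432, 0.00907 and 0.0316. Each column of Ccnd1 was thus higher at each later stage, in level and in rank, which held for no other member in all 3 columns. The body sums were 101, 762 and 2142 steps. Signal around the start of Ccnd1 lay mainly outside PR, with 304, 558 and 1604 steps in the outer part of SE against 16, 92 and 724 in PR.

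Ccnd2 (ENSMUSG00000000184) encodes cyclin D2, which in the mouse is needed for the postnatal expansion of beta cells, and lies on chromosome 6 from 127125162 to 127152188. GB was 0.00565, 0.00818 and 0.00805 in stage order, at the 61.6th, 79.6th and 71.5th percentile. PR was 0.00842, 0.00195 and 0.0119, at the 75.6th, 34.8th and 64.2nd percentile. Its body sums of 884, 1238 and 1252 steps were close at the later stages, whereas its PR sums were 312, 70 and 440 steps. The recovered window of Ccnd2 is 6.24% shorter than the RefSeq gene, the widest gap of the 7.

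**Figure D2:**
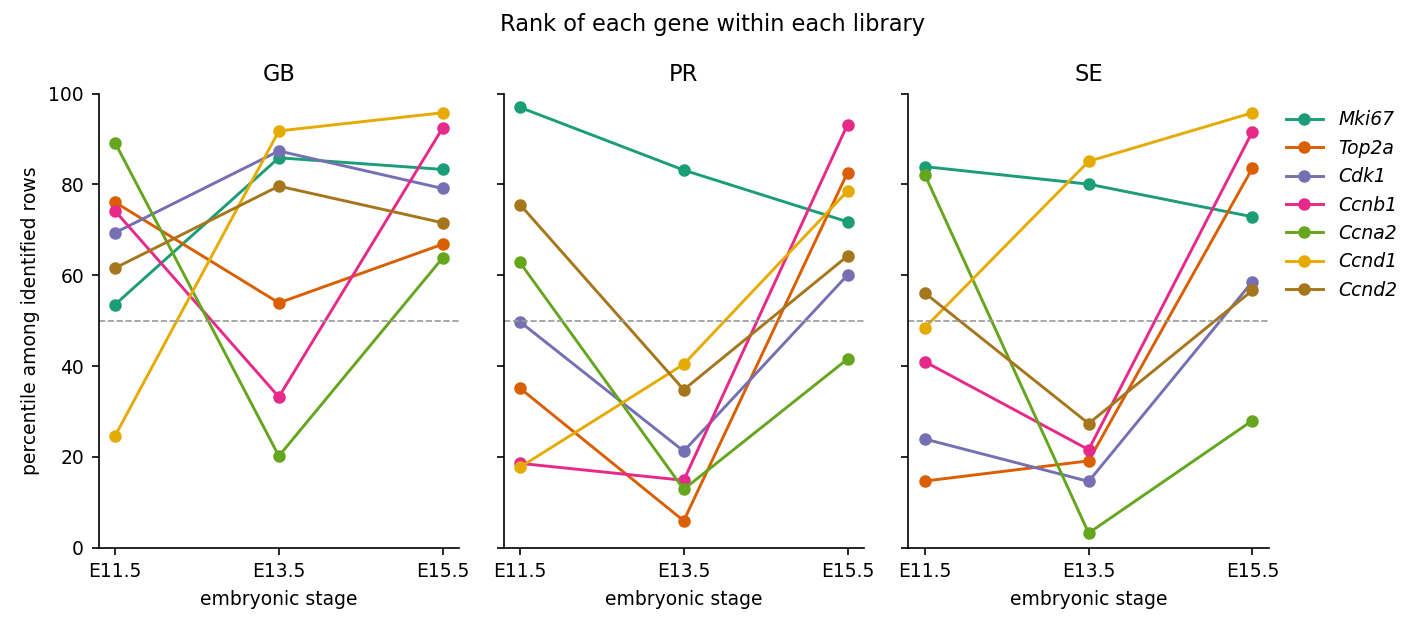
Percentile of each of the 7 genes among identified rows within each library (vertical axis, 0 to 100) by stage, for GB, PR and SE, with a dashed line at 50. Lines join the values of 1 gene. Mki67 alone is above the 50th percentile in PR at E13.5, at 83.1, and Ccna2 is the member below it in PR at E15.5, at 41.6.

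Because GB, PR and SE are means per position, genes of different length can be put in order within a library. By GB the order at E11.5 was Ccna2, Top2a, Ccnb1, Cdk1, Ccnd2, Mki67 and Ccnd1, from 0.0121 to 0.00164. At E13.5 it was Ccnd1, Cdk1, Mki67, Ccnd2, Top2a, Ccnb1 and Ccna2, from 0.0128 to 0.000902. At E15.5 it was Ccnd1, Ccnb1, Mki67, Cdk1, Ccnd2, Top2a and Ccna2, from 0.0349 to 0.00610. Ccna2 was first at E11.5 and last at both later stages, and Ccnd1 was last at E11.5 and first afterwards. With no second library, no neighbours in these orders can be said to differ.

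E13.5 was set against E11.5 for the first interval. Differences were expressed as log2(later value + 0.001) minus log2(earlier value + 0.001), called the log2 ratio, and a gene was counted where the higher library reached the median of that column (0.00413 for GB, 0.00407 for PR and 0.00460 for SE) and the ratio reached 2-fold. In GB, 1 of the 7 members was at least 2-fold higher at E13.5, Ccnd1, with a log2 ratio of 2.38, beside 17.2% of all rows counted. At least 2-fold lower were 2 members, Ccnb1 at -1.22 and Ccna2 at -2.79, beside 19.4% of rows. Ccnb1 no longer reached 2-fold with a pseudocount of 0.005, at -0.71. The other members lay between -0.67 for Top2a and 0.94 for Mki67. Without the pseudocount Mki67 was 2.12-fold higher at E13.5. It passed 2-fold with a pseudocount of 0.0001 (1.07) and under quantile normalization (1.24). In PR, 3 members passed the floor and 2 of them were at least 2-fold lower, Ccna2 at -2.73 and Ccnd2 at -1.67, beside 32.8% of rows, and 0 were higher, beside 28.8%. With a pseudocount of 0.005 Ccnd2 had -0.95 and was no longer counted. In SE, 4 passed the floor, 1 was lower, Ccna2 at -3.29, beside 24.8% of rows, and 0 were higher, beside 19.9%. No test sets these counts of so few members apart from the background shares. In level, with the floor set aside, 6 of 7 members had lower PR at E13.5 than at E11.5, the exception being Ccnd1. Of all rows above the floor, 47.0% had a PR log2 ratio above 0. Top2a, Cdk1, Ccnb1 and Ccnd1 were under the floor in this comparison.

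E15.5 was set against E13.5 for the second interval. PR was at least 2-fold higher at E15.5 in 5 of the 6 members above the floor, beside 52.2% of all rows, and lower in 0, beside 24.7%. These were Ccnb1 (log2 ratio 5.11), Top2a (4.58, against a value listed at 0), Cdk1 (2.78), Ccnd1 (2.53) and Ccnd2 (2.13). Mki67 had 0.67, below the median of 1.12 over all rows above the floor, and turned to -0.49 under quantile normalization. Ccna2, under the floor, had 1.77. The log2 ratio of Ccnb1 lay at the 98.95th percentile of rows above the floor and that of Top2a at the 97.3rd, whereas Cdk1, Ccnd1 and Ccnd2 lay between the 69.02nd and the 79.8th. SE gave the same 5 members, beside 45.7% of rows, with 0 lower, beside 17.9%. That count became 4 under quantile normalization, which left Ccnd1 at 0.63, and 4 with a pseudocount of 0.005, which left Ccnd2 at 0.78. In GB, 3 of 7 were at least 2-fold higher at E15.5, Ccnb1 (2.78), Ccna2 (1.90) and Ccnd1 (1.38), beside 27.6% of rows, and 0 were lower, beside 22.1%. Of these, Ccnd1 no longer reached 2-fold under quantile normalization (0.48) and Ccna2 no longer with a pseudocount of 0.005 (0.91), which leaves 2 members in either case. Cdk1 and Ccnd2 were level in GB at 0.06 and -0.02, and the sign of Cdk1 turned under quantile normalization and that of Ccnd2 under division by the median GB. PR was higher at E15.5 in 67.1% of all rows above the floor, and quantile normalization moved the median log2 PR ratio of all rows by -1.01.

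E15.5 was set against E11.5 for the whole span. GB was at least 2-fold higher at E15.5 in 3 of 7 members, Ccnd1 (log2 ratio 3.77), Ccnb1 (1.56) and Mki67 (1.34), beside 26.5% of rows, and 0 were lower, beside 22.8%. With a pseudocount of 0.005 the count was 2, since Mki67 had 0.93. Without the pseudocount, Ccnd1 was 21.3-fold higher, on body sums of 2142 steps at E15.5 and 101 at E11.5. Ccna2 had a GB ratio of -0.89, Top2a -0.19, Ccnd2 0.45 and Cdk1 0.62, and the sign of Top2a turned under division by the median GB. In PR, 4 of 7 were higher, Ccnb1 (4.73), Ccnd1 (3.85), Top2a (3.00) and Cdk1 (1.18), beside 50.0% of rows, and 0 were lower, beside 26.0%. Cdk1 did not reach 2-fold under quantile normalization (0.55) and with a pseudocount of 0.005 (0.76), which leaves 3. The other PR ratios were -0.95 for Ccna2 (0.435-fold without the pseudocount), -0.27 for Mki67 and 0.46 for Ccnd2. Under quantile normalization Ccna2 (-1.22) and Mki67 (-1.44) were at least 2-fold lower, and the sign of Ccnd2 turned (-0.45). SE gave the same 4 members higher, beside 42.7% of rows, and 1 lower, Ccna2 at -2.07, beside 19.7%. The SE ratio of Cdk1 was 0.89 with a pseudocount of 0.005, so that 3 were then higher. Among rows of window length within 2-fold of the members' range, the background shares were close to these, with 26.8% higher in GB and 51.5% in PR. The 3 comparisons share libraries, and the E13.5 values of a gene enter both intervals with opposite sign.

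**Figure D3:**
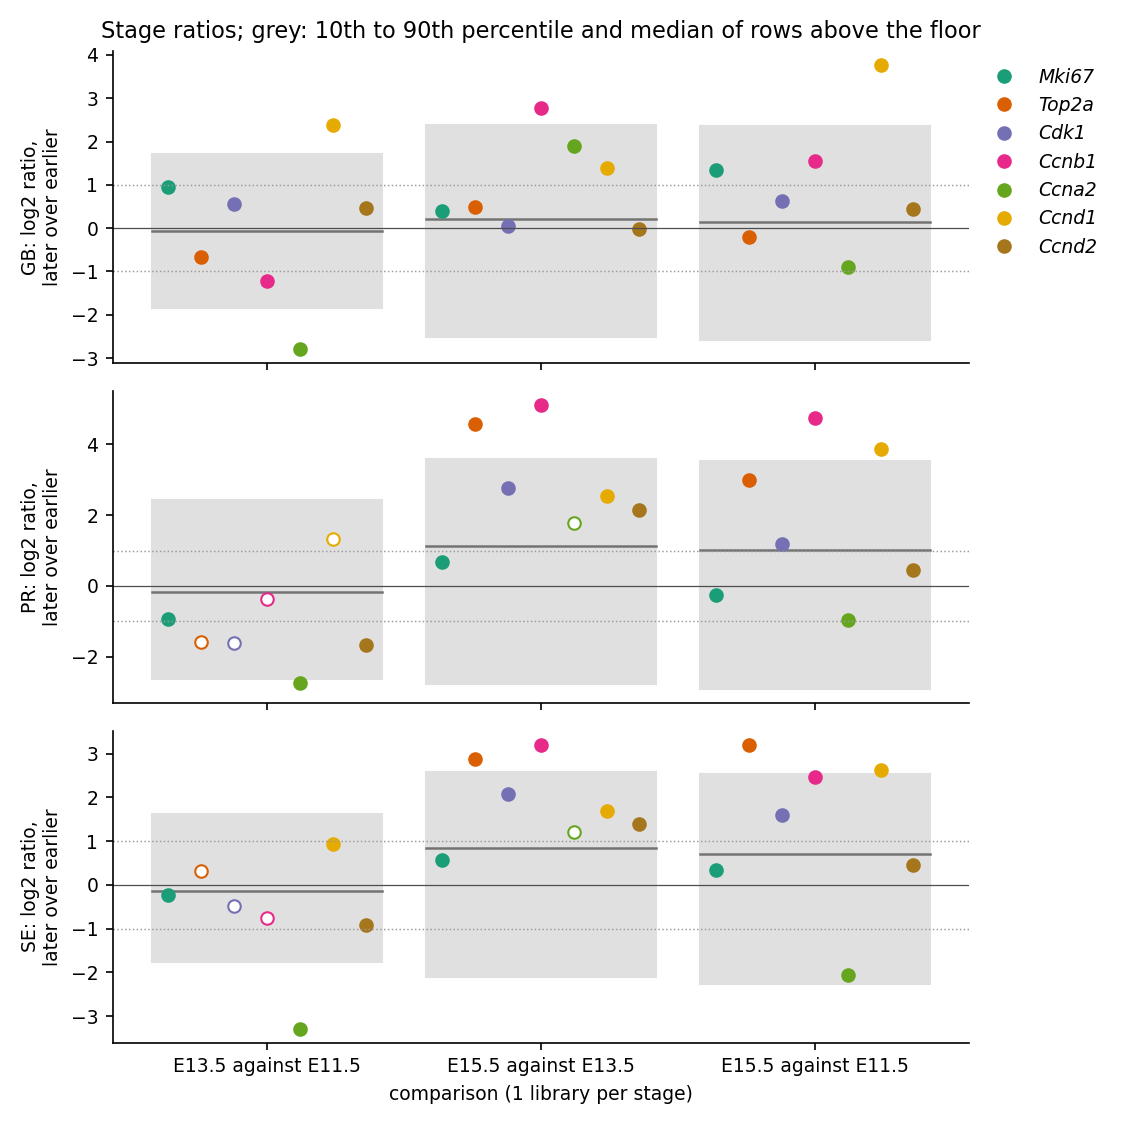
Log2 ratio, later over earlier (vertical axis, 0.001 added to both values), for the 7 genes in GB, PR and SE, by comparison, 1 library per stage. Open points did not reach the floor, grey boxes run from the 10th to the 90th percentile of all rows above it with a line at their median, and dotted lines mark 2-fold. Ccnd1 lies above the box in GB for E13.5 against E11.5 and for E15.5 against E11.5, and Ccnb1 lies above it in PR in both comparisons of E15.5. Top2a, Ccnb1 and Ccnd1 also lie above a box elsewhere. Ccna2 lies below the box in all 3 columns for E13.5 against E11.5.

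Within a library a single scale factor applied to all columns cancels in the ratio of PR to GB. Scaling that treats each column on its own, such as the quantile normalization used here, can change this ratio. The median ratio of the 7 genes was 0.494, 0.0610 and 1.16 in stage order. Among the identified rows with GB above 0 the median was 0.770, 0.740 and 1.08. PR exceeded GB in 2, 0 and 4 members, whereas it did so in 39.9%, 38.1% and 51.9% of all such rows. The members above 1 were Mki67 (4.06) and Ccnd2 (1.49) at E11.5, and Top2a (3.38), Ccnb1 (1.59), Ccnd2 (1.48) and Mki67 (1.16) at E15.5. At E13.5 the highest ratio was that of Mki67, at 0.952, and the other 6 lay between 0 and 0.239. The E13.5 median of 0.0610 was the ratio of Ccna2, from 2 steps in PR and 44 over the body. PR at E13.5 was 0 steps for Top2a, 5 for Ccnb1 and 22 for Cdk1. It was 70 for Ccnd2, 92 for Ccnd1 and 338 for Mki67. The low E13.5 median thus rests on few steps. At E13.5 at least 78.5% of the body sum of every member lay outside PR. That bound also depends on window length, since the first 3000 positions make up 9.60% (Top2a) to 38.7% (Ccnb1) of a member's body. No share over all rows was computed for it.

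**Figure D4:**
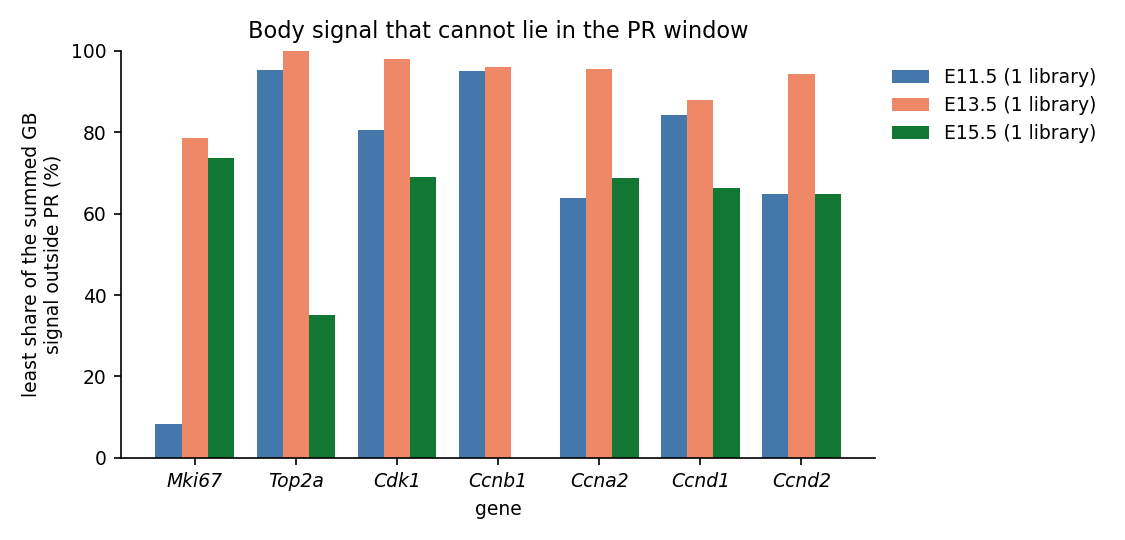
Lowest share (percent) of the summed GB signal that must lie outside the PR window, from the body sum minus the PR sum in steps, for each gene and library. The bound is 78.5% or more for all 7 genes at E13.5, 8.33% for Mki67 at E11.5, and 0% for Ccnb1 at E15.5, where the PR sum exceeds the body sum. It also depends on window length, and no share over all rows was computed.

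The rows closest to the median GB profile of the members over the 3 stages, by Euclidean distance of log2(GB + 0.001), were ENSMUSG00000004768 at 0.08 and ENSMUSG00000115970 at 0.10. The members themselves lay farther from their own median profile, from 0.32 for Cdk1 to 2.51 for Ccna2. Within a distance of 1 were 3276 rows, 13.48% of the identified rows that are not members, so the profile is a common one. The other 44 cell-cycle genes of the list drawn up for this comparison were not analysed here, since no table used here pairs their symbols with identifiers.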

How the data were processed

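H3K36me3 CUT&Tag was measured in 3 libraries, 1 per stage. Per the submitters' processing notes, reads were aligned with Bowtie2 2.4.2 to mm10. The sources used here give no filters, counting, scaling or gene models. Per the file headers, the authors deposited signal per gene in columns named GB, PR and SE. Rows without an identifier (1175, 4.61%) were left out, and 2 rows have no SE value. Depth per file is unknown, so no counting interval is given.

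Steps and window lengths were recovered from the values with numpy 2.4.6 and numba 0.67.0, after a test on simulated data. A length was recovered for 20651 identified rows. Percentiles are mid-ranks among identified rows. Log2 ratios used a pseudocount of 0.001, a floor at the median of the column and a 2-fold threshold. All 7 members are named, whatever their values. The members and lists were chosen with earlier results of these data known. Placing PR and SE around the start is an inference from the values, made after the data were seen. No test was run. Alternatives were other pseudocounts, scalings, floors, thresholds and reference sets of rows.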

Additional observations from a re-analysis of the deposited data

How the results depend on the processing

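Among the alternatives, only quantile normalization could have turned the sign of a member ratio that had reached 2-fold, and it turned none. Other pseudocounts keep the order of the values compared. Thresholds, floors and reference sets recompute no ratio, and dividing by the median GB moved ratios too little. Of 162 recomputed summaries over the 7 members, 135 stayed close to the main value and 27 moved. Close meant within 1.5 times for counts and ratios and within 10 points for percentiles. A count that went from 3 to 2 or from 4 to 3 was thus close. Leaving out the floor could change no count where all 7 members already passed it, as in GB. The 135 therefore include summaries that could not move. Of 377 recomputed values of single genes, 82 moved. The cause was not tested.

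For E13.5 against E11.5, the count of members at least 2-fold higher in GB became 2 with a pseudocount of 0.0001, quantile normalization or a 1.5-fold threshold, and the count lower became 1 with a pseudocount of 0.005. In PR the count lower became 1 with a pseudocount of 0.005 and 4 without a floor, and the count higher became 1 without a floor. In SE the counts became 1 higher and 2 lower with a pseudocount of 0.0001, quantile normalization or a 1.5-fold threshold. The median log2 PR ratio of members became -0.66 with a pseudocount of 0.005.

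For E15.5 against E13.5, the median log2 ratio of members in PR, 2.53 in the main setting, became 3.83 with a pseudocount of 0.0001, 1.42 with 0.005 and 1.94 under quantile normalization. In SE, 1.70 in the main setting became 2.73 and 1.08 with those pseudocounts. For E15.5 against E11.5, 1 member became lower in GB under quantile normalization or a 1.5-fold threshold, and in PR 1 became lower with a pseudocount of 0.0001 or a 1.5-fold threshold and 2 under quantile normalization. The median log2 ratio became 0.55 in PR under quantile normalization and 0.89 in SE with a pseudocount of 0.005. Among rows of similar window length the median GB percentile at E11.5 was 59.3, against 69.4 among all identified rows.

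Quantile normalization gives all libraries the same values by construction. It moved the share of higher calls among all called rows for E15.5 against E13.5 to 50.1% in PR, against 67.9% in the main setting, and to 49.97% in SE, against 71.9%. Dividing by the median GB moved the median log2 ratios of all rows at E15.5 by 0.16 to 0.20. No paired analysis was possible because the labels give a single library for every stage, which also leaves no replicate to be left out. Depth is unknown, and several E13.5 values rest on a few steps.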
